A study of Mus musculus with 9 samples.

Results

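Interferon response genes were followed in cultures of valvular interstitial cells (VICs), the main resident cells of heart valve leaflets, which resemble fibroblasts. The set is a list of 44 gene symbols known to be induced by interferons or to carry their signal. The rule is by symbol alone and uses no expression value, but the list was drawn up with earlier results of these data known. All 44 were found among the 51810 genes of the deposited table. Of these, 41 averaged 1 TPM or more across the 9 libraries and were among the 13495 genes tested. TPM is a gene's length-corrected share of the transcripts of a library.

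Mitral and aortic valves of C57BL/6J mice were the source, with no engineered allele named in the labels. There were 3 oxLDL samples (oxidised low-density lipoprotein, 50 ug/mL), 3 LDL samples (the native particle, 50 ug/mL) and 3 Control samples, which received buffer, each for 24 h. All 9 were grown with 10% serum, insulin at 5 ug/mL, EGF at 2 ng/mL and basic FGF at 0.5 ng/mL, so serum and these factors were present in every group. No age is given. The labels do not state whether the 3 samples of a group came from different animals or culture dishes, so each p-value reflects sample-to-sample spread that could be technical. The samples are bulk RNA, in which fewer cells of a type and less RNA per cell cannot be told apart.

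Type I interferons bind the IFNAR1 and IFNAR2 receptor chains, which signal through the kinases JAK1 and TYK2 to a factor complex that contains STAT2 and IRF9. That complex binds the interferon-stimulated response element (ISRE) in the promoters of antiviral genes, whereas interferon gamma acts mainly through the gamma-activated site (GAS). Many cultured cells keep a low tonic expression of these genes without added interferon, and IRF7 and STAT2 are themselves induced, which feeds the response forward.

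Most members moved together from library to library. The median member deviated from its 9-library mean by -0.79 in oxLDL library 1 and by 0.54 in oxLDL library 3 (log2 scale), so the oxLDL group held both ends of the range. With oxLDL, 38 of the 41 tested members averaged lower than in Control (median log2 difference -0.43), and with LDL 37 of 41 did, with a median of -0.37. Since the members moved together, these counts do not stand for separate observations. None of the 41 passed the test in any of the 3 treatment comparisons. Between replicate numbers, 12 of the 41 were higher in the libraries numbered 3 than in those numbered 1 (limma, adjusted p under 0.05), against 8.46% of all genes tested, a count that leaving out single libraries brought down to between 0 and 10.

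The promoters of the members are shown first, since the ISRE is the element many of them are known for. RefSeq promoter windows (GRCm38.p6, 250 bases before to 50 after the start of transcription) were at hand for 33 of the 44 members, in 39 windows. The ISRE core was searched as GAAANNGAAA on both strands, with overlapping matches counted, and 17 of the 33 genes held it (51.5%). Of all 27025 genes in the table, 3.99% held it. The GAS core, TTCNNNGAA, was present in 9 of the 33 (27.3%), against 9.55% of all genes. The members were listed as genes known to be induced by interferons or to carry their signal. Shares above those of all genes were therefore built into the choice of list. They do not bear on why the members moved together, which was not tested. A match describes letters in this window and is no evidence that a factor binds there. The 5 windows below belong to the most abundant ISRE-holding member of 5 roles, a transcription factor, an antiviral effector, an oligoadenylate synthetase, the modifier ISG15 and an RNA sensor. They are read along the gene's strand, with the ISRE cores in capitals.
Stat2, chr10:128270248-128270547, plus strand: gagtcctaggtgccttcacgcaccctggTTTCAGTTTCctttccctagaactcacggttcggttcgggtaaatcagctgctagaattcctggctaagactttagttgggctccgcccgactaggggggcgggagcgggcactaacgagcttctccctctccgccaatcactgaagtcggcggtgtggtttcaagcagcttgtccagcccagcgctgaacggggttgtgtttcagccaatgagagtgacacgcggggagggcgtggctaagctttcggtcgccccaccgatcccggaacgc
Bst2, chr8:71537423-71537722, minus strand: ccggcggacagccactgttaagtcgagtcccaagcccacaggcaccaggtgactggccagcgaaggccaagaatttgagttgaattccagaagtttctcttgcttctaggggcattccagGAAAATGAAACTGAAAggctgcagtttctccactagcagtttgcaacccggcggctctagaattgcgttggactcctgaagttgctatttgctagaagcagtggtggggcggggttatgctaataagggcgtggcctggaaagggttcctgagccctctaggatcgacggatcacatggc
Oas1a, chr5:120907476-120907775, minus strand: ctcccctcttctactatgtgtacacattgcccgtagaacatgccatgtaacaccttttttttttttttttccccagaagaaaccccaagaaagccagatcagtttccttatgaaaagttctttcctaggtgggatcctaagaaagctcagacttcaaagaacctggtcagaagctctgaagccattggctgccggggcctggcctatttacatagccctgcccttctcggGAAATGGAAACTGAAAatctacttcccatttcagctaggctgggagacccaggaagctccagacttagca
Isg15, chr4:156200769-156201068, minus strand: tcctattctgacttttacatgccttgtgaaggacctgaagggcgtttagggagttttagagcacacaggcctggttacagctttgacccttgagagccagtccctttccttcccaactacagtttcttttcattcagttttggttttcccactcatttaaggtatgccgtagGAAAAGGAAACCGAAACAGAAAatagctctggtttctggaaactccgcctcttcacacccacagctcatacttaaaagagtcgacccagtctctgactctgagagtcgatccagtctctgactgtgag
Ddx58, chr4:40239776-40240075, minus strand: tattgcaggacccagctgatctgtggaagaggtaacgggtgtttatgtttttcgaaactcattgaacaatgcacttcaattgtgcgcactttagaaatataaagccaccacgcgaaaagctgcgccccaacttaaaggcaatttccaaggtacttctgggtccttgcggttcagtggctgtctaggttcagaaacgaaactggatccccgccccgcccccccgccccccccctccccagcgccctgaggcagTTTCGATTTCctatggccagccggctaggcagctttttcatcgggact

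In Isg15, 3 overlapping cores formed 1 uninterrupted run whose matches began 66 to 78 bases before the start of transcription. Bst2 and Oas1a each held a pair of overlapping cores, beginning 124 to 130 and 14 to 20 bases before the start. In Stat2 and Ddx58 the single core was found on the opposite strand, 222 bases before the start in Stat2 and just after it in Ddx58. Over all 17 genes there were 26 matches, of which 24 lay before the start of transcription and 20 of these within 150 bases of it. The near copies Ifit3 and Ifit3b each held a pair of cores at the same spacing.

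**Figure D1:**
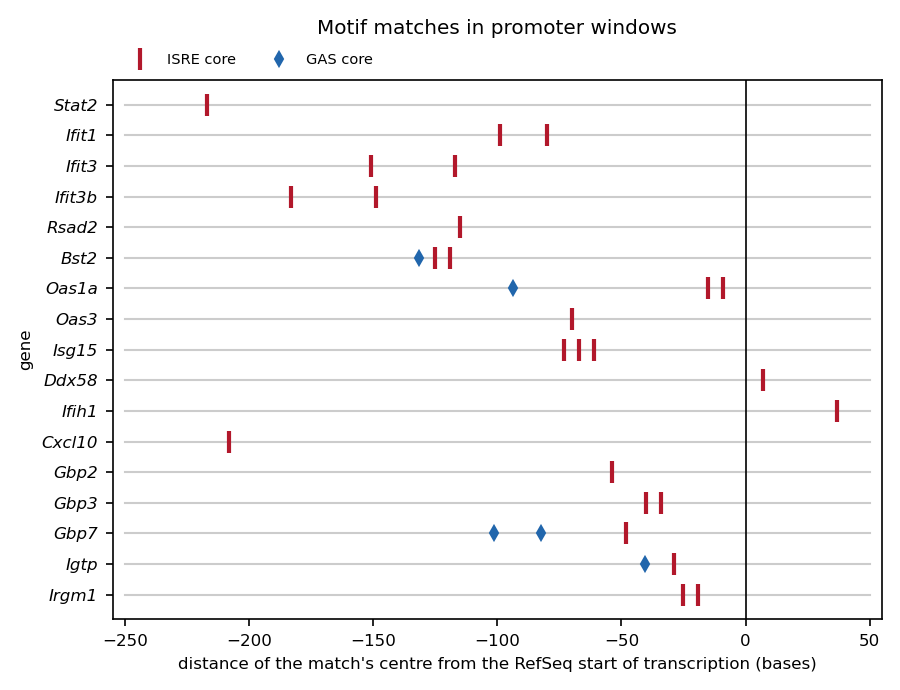
Positions of ISRE core matches (red bars) and GAS core matches (blue diamonds) in the promoter windows of the 17 members that hold an ISRE core; the horizontal axis is the distance in bases from the RefSeq start of transcription. Of the 26 ISRE matches, 24 lie left of the start, and matches that overlap stand side by side in Isg15, Bst2, Oas1a, Gbp3 and Irgm1.

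Libraries of the same replicate number shared features that the treatments do not explain. All 10 valve interstitial and fibroblast markers, such as Vim, Col1a1 and Pdgfra, were above 1 TPM, and their sum ran from 18945.7 to 23244.7 TPM. Most of this sum was Vim and S100a4, with means of 5580 and 8710 TPM, so it says little about the rest. Across the 9 libraries Postn ran over 41.9 to 173 TPM, Thy1 over 185 to 507 TPM and Dcn over 1497 to 3503 TPM. Postn and Thy1 were highest in library 1 of each treatment. Markers of other cells were also present. Of 12 macrophage and leukocyte markers 9 had a mean of at least 1 TPM, led by Lyz2, while the plasmacytoid dendritic cell marker Siglech was at 0 throughout and the T cell marker Cd3e was at 0 in 8 libraries. Their sum was 100.7 to 715.7 TPM with oxLDL, 229.6 to 710.8 TPM with LDL and 225.9 to 467.8 TPM in Control, with the lowest library of each group numbered 2. All 8 endothelial markers were above 1 TPM, at sums of 132.2 to 317.9 TPM with oxLDL, 132.1 to 337.5 TPM with LDL and 125.9 to 299 TPM in Control, highest in the libraries numbered 1. The part of these cells in the results below was not tested. In libraries 1, 2 and 3 the macrophage and leukocyte sum was 516.5, 100.7 and 715.7 TPM with oxLDL, 710.8, 229.6 and 568.1 TPM with LDL, and 467.8, 225.9 and 436 TPM in Control. The mean log2(TPM + 1) of the tested members in the same libraries was 3.32, 3.72 and 4.6 with oxLDL, 3.93, 3.66 and 4.16 with LDL, and 4.21, 4.21 and 4.45 in Control. Both were highest in oxLDL library 3, while the sum was lowest in oxLDL library 2 and the members in oxLDL library 1.

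The transcription factors of the pathway were all transcribed. Values per library are given below in the order of replicate numbers 1, 2 and 3 within a treatment. Irf7, which amplifies interferon induction, had 11.7, 20.8 and 72.4 TPM with oxLDL, 22.98, 24.4 and 49.9 TPM with LDL, and 29.4, 37.98 and 57.6 TPM in Control. The oxLDL libraries included both the lowest and the highest value of the 9, and the 3 groups overlapped. Exons of Irf7 overlap those of Phrf1 on the other strand, and reads of the pair cannot be fully told apart. Stat2, the transducer of type I interferon signalling, had 17.8, 23.1 and 51.4 TPM with oxLDL, 25.2, 25.2 and 33.9 TPM with LDL, and 38.5, 39.1 and 50.96 TPM in Control. All 3 LDL libraries lay below all 3 Control libraries, and the oxLDL libraries spanned both groups. Irf9, which gives the STAT complex its DNA specificity, had 17.6, 26.9 and 41.7 TPM with oxLDL, 29.1, 27.2 and 33.2 TPM with LDL, and 31.9, 36.8 and 41.3 TPM in Control. Its groups overlapped, with oxLDL library 1 the lowest of the 9. Irf1, which responds chiefly to interferon gamma, was nearly even at 12.9 to 16.9 TPM, with the LDL libraries at 13.5, 13.7 and 14.2 TPM below the Control libraries at 15.9, 16.9 and 14.7 TPM.

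Among the antiviral effectors, Bst2, which encodes the virion-tethering protein tetherin, was the most abundant at 189, 308 and 511 TPM with oxLDL, 409, 317 and 376 TPM with LDL, and 342, 388 and 507 TPM in Control. Its lowest and highest libraries were oxLDL 1 and oxLDL 3. Ifit3, of a family that blocks translation of foreign RNA, had 21.5, 27.5 and 60.9 TPM with oxLDL, 39.3, 25.8 and 41.5 TPM with LDL, and 79.5, 44.2 and 71.6 TPM in Control. The LDL libraries did not reach the Control libraries, and in oxLDL only library 3 did. Ifit2, of the same family, varied little, with 19.1, 22.4 and 22.4 TPM with oxLDL, 18.9, 21.2 and 20.7 TPM with LDL, and 22.6, 20.3 and 25.9 TPM in Control. The groups overlapped. Cmpk2, a mitochondrial nucleotide kinase, had 1.59, 1.96 and 5.17 TPM with oxLDL, 2.31, 2.38 and 4.56 TPM with LDL, and 3.73, 3.39 and 5.03 TPM in Control. In every treatment the highest value was in library 3. Mx2, a dynamin-like GTPase that the annotation lists as a polymorphic pseudogene in this strain's reference, was low, with 0.29, 0.74 and 3.12 TPM with oxLDL, 0.83, 0.7 and 1.27 TPM with LDL, and 1.11, 1.3 and 4.17 TPM in Control. Library 3 was again the highest of each group. Ifit1 ran over 7.35 to 33.1 TPM, Ifit3b over 2.98 to 14.1 TPM and Isg20, an exonuclease, over 6.36 to 11.3 TPM. Mx1, at 0.02 to 0.49 TPM, and Rsad2, which encodes viperin, at 0.43 to 1.66 TPM, had means under 1 TPM and were not tested. The coding sequences of Ifit3 and Ifit3b, each 1212 bases, differed at 11 positions (99.1% identical), so the split of reads between them is uncertain.

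The oligoadenylate synthetases, which make the activator of RNase L, had the largest differences between replicate numbers 3 and 1 of any role, with a median of 1.19 on the log2 scale. Oasl2 had 9.6, 19.8 and 52.8 TPM with oxLDL, 23.5, 19.4 and 36.97 TPM with LDL, and 28.4, 31.2 and 47.98 TPM in Control. Library 3 was the highest of each treatment, and oxLDL library 1 the lowest of all. Oas1a had 3.42, 8.78 and 19.6 TPM with oxLDL, 8.53, 6.88 and 13.3 TPM with LDL, and 7.73, 13.03 and 17.98 TPM in Control. The order of the libraries was like that of Oasl2 in oxLDL. Oasl1 differed, with 1.04, 1.21 and 2.64 TPM with oxLDL, 2.06, 2.12 and 5.34 TPM with LDL, and 3.17, 2.01 and 3.05 TPM in Control. Its highest value was in LDL library 3. Oas2, at 0.27, 0.56 and 3.64 TPM with oxLDL, 0.61, 0.77 and 1.88 TPM with LDL, and 1.16, 1.75 and 2.53 TPM in Control, was near the limit for testing. It was below 1 TPM in oxLDL libraries 1 and 2 and in LDL libraries 1 and 2. Oas3, at 0.08 to 0.59 TPM, was not tested.

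Of the ISG15 system, Isg15, a ubiquitin-like modifier encoded at chr4:156199424-156200818 (GRCm38, minus strand), had 36.2, 65.1 and 183 TPM with oxLDL, 106, 57.5 and 105 TPM with LDL, and 142, 131 and 165 TPM in Control. The LDL libraries all lay below the Control libraries, and oxLDL held the lowest and the highest library. Usp18, the protease that removes ISG15 and dampens receptor signalling, had 4.59, 10.6 and 26.2 TPM with oxLDL, 12.5, 8.28 and 15.5 TPM with LDL, and 19.4, 15.4 and 29.7 TPM in Control. LDL library 3 just exceeded Control library 2, so the groups overlapped. Trim25, the ubiquitin ligase that activates RIG-I, had 16.7, 21.7 and 30.9 TPM with oxLDL, 23.6, 23.1 and 31.7 TPM with LDL, and 22.9, 20.2 and 28.2 TPM in Control. Here the libraries numbered 3 were the highest of each treatment, and the group means were close.

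Every nucleic acid sensor in the list was transcribed. Ddx58, which encodes the RNA sensor RIG-I, had 32.9, 43.5 and 66.8 TPM with oxLDL, 48.1, 47.7 and 56.4 TPM with LDL, and 49.3, 56.7 and 67.98 TPM in Control. Its groups overlapped, with oxLDL library 1 the lowest. Zbp1, a sensor of Z-form nucleic acid, had 7.9, 7.14 and 32.2 TPM with oxLDL, 17.7, 10.8 and 15.7 TPM with LDL, and 14.8, 22.4 and 15.3 TPM in Control. The value of oxLDL library 3 was well above all 8 others. Ifih1, which encodes the RNA sensor MDA5, had 4.29, 8.15 and 11.7 TPM with oxLDL, 7.67, 7.1 and 10.6 TPM with LDL, and 8.57, 9.84 and 13.4 TPM in Control. Ifi204, a mouse DNA sensor of the IFI200 family, had 3.04, 5.23 and 15.8 TPM with oxLDL, 5.2, 5.39 and 9.77 TPM with LDL, and 5.67, 7.97 and 10.97 TPM in Control. In both genes library 3 was the highest of each treatment. Dhx58, which encodes the regulator LGP2, ran over 2.64 to 12.99 TPM.

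The chemokines did not follow the other members. Ccl5 (chr11:83525778-83530518, minus strand), which attracts T cells and monocytes, had 20.2, 10.2 and 16.3 TPM with oxLDL, 14.2, 4.01 and 8.57 TPM with LDL, and 9.1, 9.42 and 4.5 TPM in Control. It was the sole member whose 3 oxLDL libraries all lay above the 3 Control libraries. Cxcl10, which attracts T cells through CXCR3, was low, with 1.43, 1.06 and 1.22 TPM with oxLDL, 1.91, 1.25 and 1.86 TPM with LDL, and 4.52, 2.38 and 0.39 TPM in Control. Its highest and lowest values were both in Control, in libraries 1 and 3. Exons of Cxcl10 overlap those of Art3 on the other strand, whose reads this unstranded kit cannot fully separate.

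Of the interferon-inducible GTPases, Irgm1, which acts in vacuole defence and autophagy, had 80.9, 114 and 157 TPM with oxLDL, 111, 97.9 and 131 TPM with LDL, and 131, 130.0 and 182 TPM in Control. Gbp2, a guanylate-binding protein, had 16.4, 22.7 and 29.4 TPM with oxLDL, 17.7, 18.4 and 19.3 TPM with LDL, and 18.2, 30.1 and 16.01 TPM in Control. Gbp3 had 5.88, 9.61 and 22.6 TPM with oxLDL, 12.5, 8.8 and 13.6 TPM with LDL, and 14.2, 17.5 and 19.9 TPM in Control. Irgm1 and Gbp3 had their lowest library in oxLDL 1, while Gbp2 was highest in Control library 2 and lowest in Control library 3. Ifi47 (chr11:49076587-49096974, plus strand), an immunity-related GTPase, had 14.98, 13.3 and 13.1 TPM with oxLDL, 11.5, 8.51 and 10.8 TPM with LDL, and 13.4, 13.9 and 16.5 TPM in Control. Its LDL libraries lay below those of both other groups, and the oxLDL and Control libraries overlapped. Its exons overlap those of Gm12188 on the other strand and of Olfr56 on its own. Gbp7 ran over 2.47 to 7.17 TPM and Igtp over 5.88 to 15.6 TPM.

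Among the antigen processing genes, Psmb8, a subunit of the immunoproteasome, had 13.4, 13.99 and 28.6 TPM with oxLDL, 14.96, 16.1 and 18.6 TPM with LDL, and 16.7, 23.6 and 21.8 TPM in Control. Tap1, a chain of the peptide transporter into the endoplasmic reticulum, had 11.2, 14.1 and 20.5 TPM with oxLDL, 13.3, 14.9 and 13.1 TPM with LDL, and 17.6, 17.8 and 18.9 TPM in Control. Psmb9, another immunoproteasome subunit, had 1.55, 1.91 and 4.47 TPM with oxLDL, 3.04, 1.41 and 2.38 TPM with LDL, and 3.05, 3.18 and 2.79 TPM in Control. In all 3 genes oxLDL library 3 was the highest of the 9, and for Tap1 the LDL libraries lay below the Control libraries. Tap1 and Psmb9 overlap each other on opposite strands, so their reads cannot be fully told apart.

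Of the other induced genes, Ifi27 (chr12:103434211-103440239, plus strand), a mitochondrial protein, was the most abundant, with 215, 208 and 209.9 TPM with oxLDL, 257, 249 and 242 TPM with LDL, and 219.8, 241 and 175 TPM in Control. It was the sole member whose LDL libraries lay above those of both other groups. Xaf1, which counters the apoptosis inhibitor XIAP, had 15.7, 34.3 and 55.4 TPM with oxLDL, 32.5, 23.8 and 32.3 TPM with LDL, and 33.1, 44.4 and 52.8 TPM in Control. Ifi35 had 23.3, 29.3 and 44.8 TPM with oxLDL, 33.1, 27.1 and 36.8 TPM with LDL, and 37.2, 38.5 and 43.5 TPM in Control. In both, all LDL libraries lay below all Control libraries. Rtp4 ran over 9.75 to 57.5 TPM, Ifi44 over 2.2 to 16.3 TPM and Parp14, an ADP-ribosyltransferase, over 3.3 to 8 TPM.

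**Figure D2:**
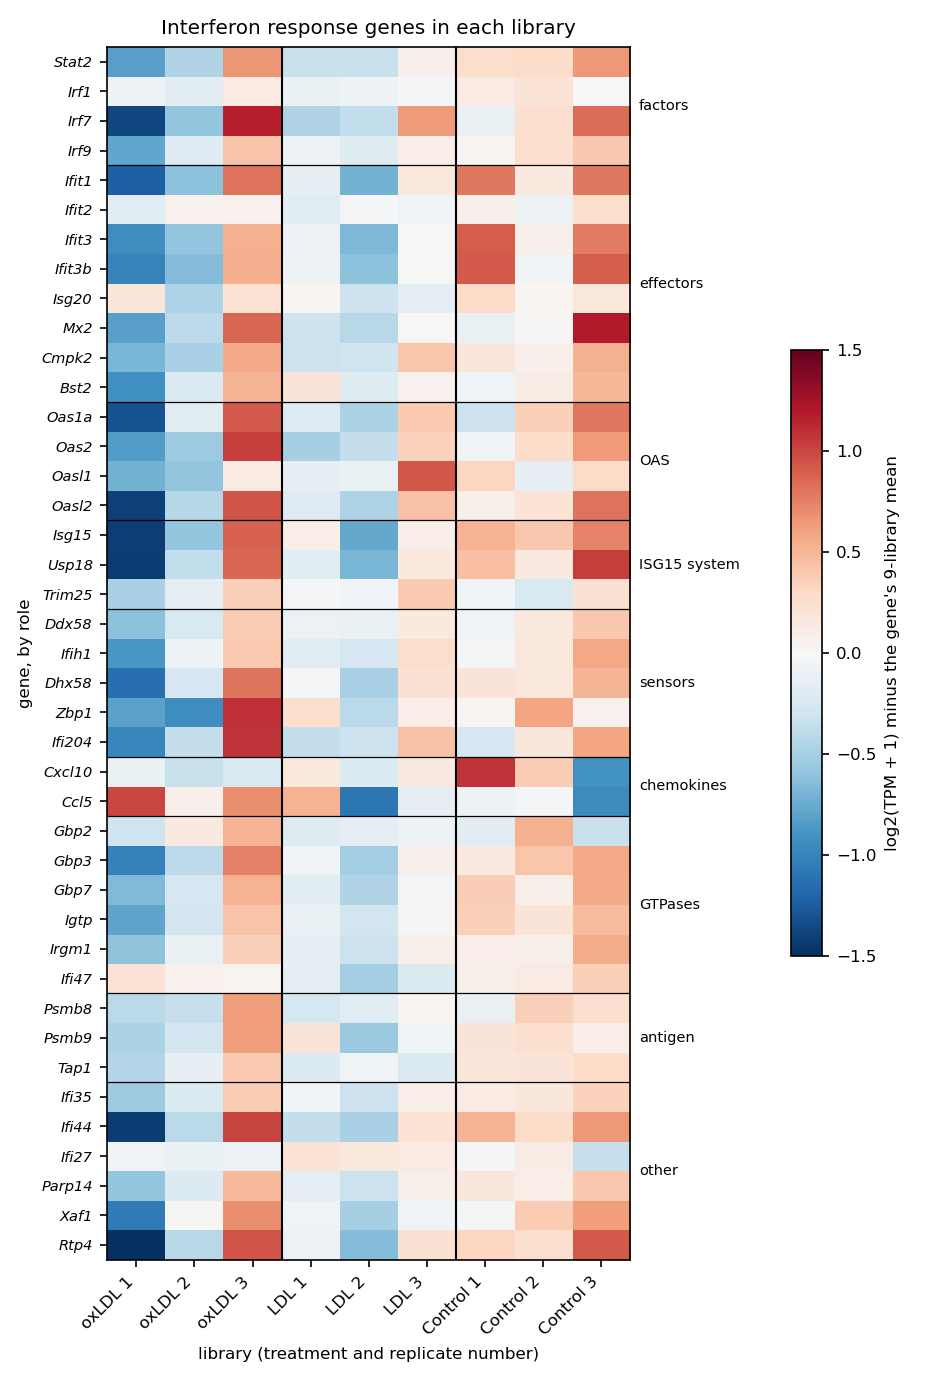
Deviation of each of the 41 tested members (rows, grouped by role) from its own mean of log2(TPM + 1) over the 9 libraries (columns), in red where above and blue where below. The oxLDL 1 column is the bluest (38 of 41 below their mean) and the oxLDL 3 column the reddest (2 of 41 below), while Ccl5, Cxcl10, Ifi27 and Ifi47 break the pattern.

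**Figure D3:**
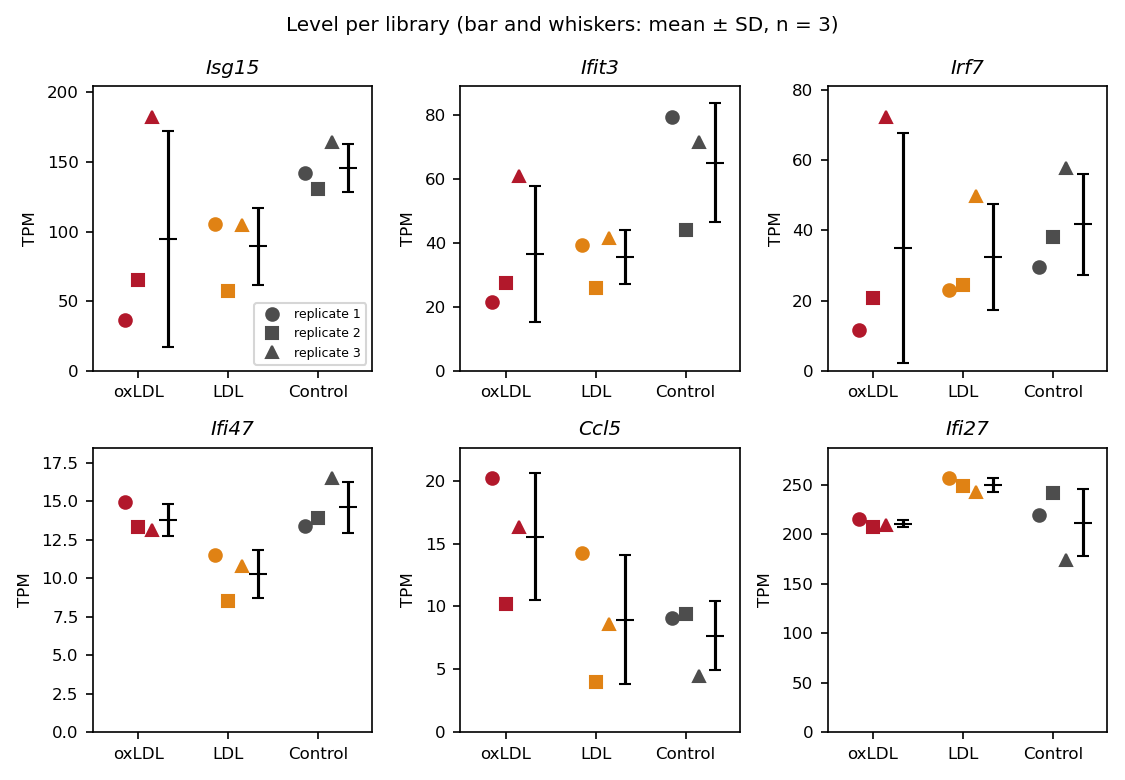
TPM of 6 members in each library, by treatment, with the marker shape giving the replicate number and the bar and whiskers the mean ± SD (n = 3). Isg15, Ifit3 and Irf7 are widely spread in oxLDL, Ifi47 is lower in every LDL library, Ccl5 is higher in every oxLDL library than in Control, and Ifi27 is higher in every LDL library.

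With oxLDL against Control, 38 of 41 tested members had a lower mean (92.7%, against 50.9% of all genes tested), with a median log2 difference of -0.43 against 0 for all genes. The members moved together across libraries, as described below, so this count does not stand for separate observations. On the log2(TPM + 1) scale the differences ran from -0.96 for Ifit3b to 0.94 for Ccl5. None of the 41 passed in limma with Benjamini-Hochberg adjustment, where the smallest adjusted p was 1 and 0.0148% of all genes passed. At an unadjusted p under 0.05 there were 2 members, Ifit3 and Ifit3b, both lower, against 3.86% of all genes. With replicate number added as a block, the count at that level was 13, of which 12 were lower, against 9.08% of all genes, and still 0 members passed the adjusted test, which 0.126% of all genes did.

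Isg15 averaged 94.6 ± 77.5 TPM with oxLDL and 146 ± 17.3 TPM in Control (SD, n = 3 each). The difference on the log2 scale was -0.93 ± 0.5 (SE, 95% interval -2.05 to 0.2, limma adjusted p = 1), within the spread between replicates. It was -0.41 without oxLDL library 1 and -1.56 without oxLDL library 3. For Ccl5 the means were 15.5 ± 5.06 TPM with oxLDL and 7.67 ± 2.75 TPM in Control, a log2 difference of 0.94 ± 0.42 (SE, 95% interval -0.01 to 1.89, limma unadjusted p = 0.0518 and adjusted p = 1), and of 0.58 without the libraries numbered 3. Ccl5 was higher in all 3 same-numbered pairs, the sole member for which this held. Over all genes it held for 1765 of the 13495 tested, so it does not set Ccl5 apart from the background. The summed macrophage and leukocyte markers, given above, also differed between these libraries, and their part in the Ccl5 values was not tested. No member had all 3 oxLDL libraries below the Control libraries, against 3.83% of all genes, and 1 had them above, against 3.5%.

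The same comparison within each replicate number divided the libraries. The median member difference was -0.85 in number 1, -0.47 in number 2 and 0.07 in number 3. In number 1 there were 39 members lower with oxLDL, in number 2 there were 38, and in number 3 there were 12, while 29 were higher. The medians over all genes were between -0.02 and 0.01. Members lower in all 3 numbers came to 10 of 41 (24.4%), against 14% of all genes. With 1 library for each treatment and number, the difference between numbers in the oxLDL values could not be tested. Without oxLDL library 3 the median difference over members was -0.8, and without oxLDL library 1 it was -0.12.

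With LDL against Control, which shares the Control samples with the comparison above, 37 of 41 tested members had a lower mean (90.2%, against 50.5% of all genes), with a median of -0.37 against 0. A lower median with LDL in interferon genes was known when the members were chosen, so this direction is not independent evidence. None of the 41 passed in limma, against 0.333% of all genes, and none with the replicate block, against 0.852%. At an unadjusted p under 0.05 there were 2, Ifi47 lower and Ifi27 higher, against 6.65% of all genes. With the block there were 11, of which 10 were lower, against 13.1%.

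Ifi47 came nearest to passing. Its LDL mean was 10.3 ± 1.56 TPM, and its Control mean was 14.6 ± 1.65 TPM (SD, n = 3 each), a log2 difference of -0.48 ± 0.12 (SE, limma adjusted p = 0.277, and 0.12 with the block). Ifi27 had an LDL mean of 250 ± 7.22 TPM and a Control mean of 212 ± 34.1 TPM, with a log2 difference of 0.25 ± 0.11 (SE, limma adjusted p = 0.713), and of 0.11 without Control library 3. For Ifit3 the difference was the widest of the 41, at -0.84 ± 0.37 (SE, limma adjusted p = 0.753).

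In 14 of 41 members all LDL libraries lay below all Control libraries, against 5.06% of all genes, and in 1 member, Ifi27, they lay above, against 5.61%. The 14 were Stat2, Irf1, Ifit3, Isg15, Gbp3, Gbp7, Igtp, Ifi47, Tap1, Ifi35, Ifi44, Parp14, Xaf1 and Rtp4. Within the replicate numbers the median was -0.24, -0.57 and -0.31 in numbers 1, 2 and 3, with 35, 37 and 34 members lower. In 31 of 41 the LDL library was the lower in all 3 numbers (75.6%, against 17.5% of all genes). These members moved together across libraries, as described below, so the counts do not stand for separate observations.

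Between oxLDL and LDL the members divided more evenly. The mean was lower with oxLDL in 26 of 41 (63.4%, against 49.6% of all genes), with a median of -0.07. None of the 41 passed in limma, against 0.104% of all genes, nor with the block, against 0.259%, and the smallest adjusted p was 0.803, for Ifi47. At an unadjusted p under 0.05 there were 2, Ifi47 higher and Ifi27 lower, against 3.91% of all genes, and 4 with the block, against 8.51%. In Ifi47 all oxLDL libraries lay above all LDL libraries, the 1 such member (4.11% of all genes), at means of 13.8 ± 1.03 TPM with oxLDL and 10.3 ± 1.56 TPM with LDL (SD, n = 3 each). In Ifi27 they lay below, again 1 member (4.2% of all genes). Within the replicate numbers the median was -0.58, 0.03 and 0.53 in numbers 1, 2 and 3, and 4 members (Oasl1, Trim25, Cxcl10 and Ifi27) were lower in all 3, against 14.9% of all genes. The count of members with a lower mean turned on single libraries. It was 4 without oxLDL library 1, 16 without oxLDL library 2, 37 without oxLDL library 3 and 11 without LDL library 3.

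**Figure D4:**
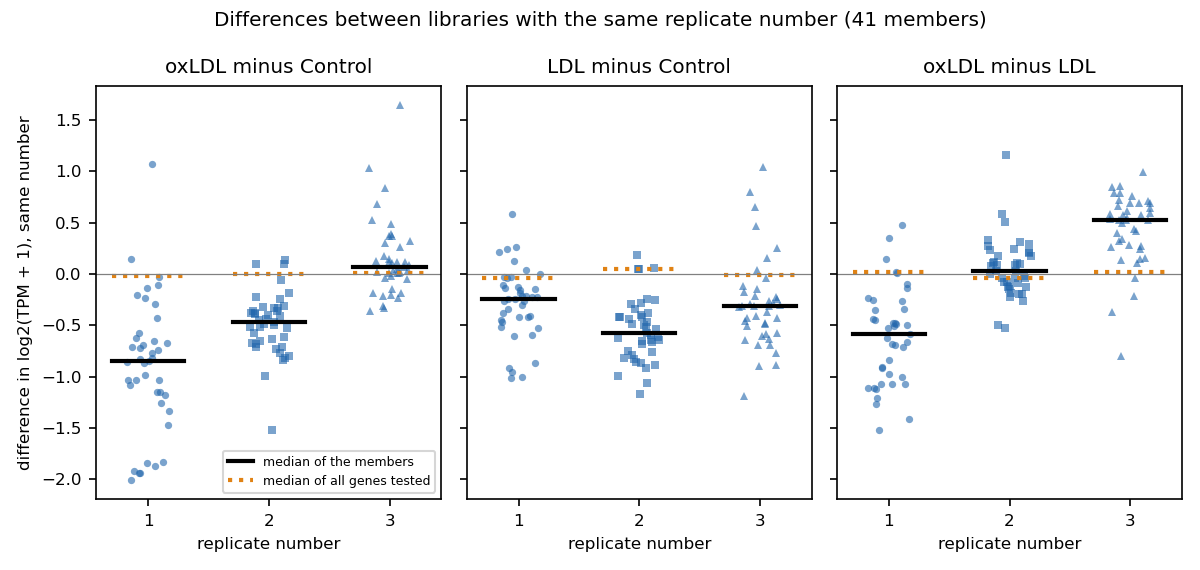
Differences in log2(TPM + 1) between libraries of the same replicate number for the 41 tested members, for oxLDL minus Control, LDL minus Control and oxLDL minus LDL, with the member median (black) and the median of all genes tested (dotted). The LDL minus Control medians lie below 0 in all 3 numbers, whereas those with oxLDL are lowest in number 1 and above 0 in number 3.

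The spread between replicate numbers was then measured with treatment in the model. Libraries with the same number deviated together over all genes, with correlations of their deviations from the treatment means of 0.172 to 0.497 in 9 pairs, against -0.309 to 0.13 in 18 pairs with different numbers. The F test over the 3 numbers called 4 of the 41 members, Irf7, Ifi204, Cmpk2 and Trim25 (limma adjusted p = 0.0318, 0.0383, 0.0383 and 0.0417), against 11.7% of all genes, so the members' share was no higher than the background. Number 3 against number 1 called 12 members higher and 0 lower, against 8.46% of all genes called higher. These 12 were Stat2, Irf7, Mx2, Cmpk2, Oas1a, Oas2, Oasl2, Trim25, Ddx58, Ifih1, Ifi204 and Irgm1. In this comparison 37 of 41 had the higher mean in number 3, against 8712 of the 13495 genes tested. The median was 0.58, against 0.08 for all genes. Here too the members moved together, so the counts of members do not stand for separate observations. The calls depended on single libraries. Without oxLDL library 1 or Control library 1 the 12 became 0, without LDL library 1 or LDL library 3 they became 1, and without LDL library 2, Control library 3 or oxLDL library 3 they became 3, 4 and 6. The 4 of the F test became 0 or 1 without oxLDL library 1 or 2, without any LDL library, or without Control library 1 or 2. With either rescaling of the TPM columns (median-ratio or quantile), 7 members were called higher in number 3 than in number 1.

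Irf7 averaged 60.0 TPM over the number 3 libraries and 21.4 TPM over the number 1 libraries, a log2 difference of 1.52. Ifi204 averaged 12.2 TPM in number 3 and 4.64 TPM in number 1, a log2 difference of 1.23. For Trim25 the averages were 30.3 TPM in number 3 and 21.1 TPM in number 1, a log2 difference of 0.52. For Cmpk2 they were 4.92 TPM in number 3 and 2.54 TPM in number 1, a log2 difference of 0.78. In all 4 genes library 3 was the highest of each treatment. Number 3 against number 2 had a median of 0.47, with 38 of 41 higher, against 8394 of the 13495 genes tested. It called 0 members, against 0.0371% of all genes called higher. Number 2 against number 1 had a median of 0.08 and also called 0 members in either direction. Of all genes, 4.82% were called higher in number 2, and 691 of the 13495 were called lower. At an unadjusted p under 0.05 the F test held 21 of the 41, against 33.2% of all genes.

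The spread divided between treatment and replicate number much as it did over all genes. Of each member's sum of squares over the 9 libraries, a median of 23.7% lay between treatments, 44.5% between numbers and 27.9% in the remainder, against 16.9%, 44.2% and 28.8% over all genes. The number took the largest share in 26 of 41, the treatment in 6 and the remainder in 9, and over all 13495 genes in 7082, 2384 and 4029. The share between treatments was highest in Ifi47 (72.5%), and the share between numbers was highest in Ifi204 (77.4%). The median standard error of a treatment difference was 0.33 in the members and 0.12 over all genes, and with the block it was 0.24 and 0.09.

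**Figure D5:**
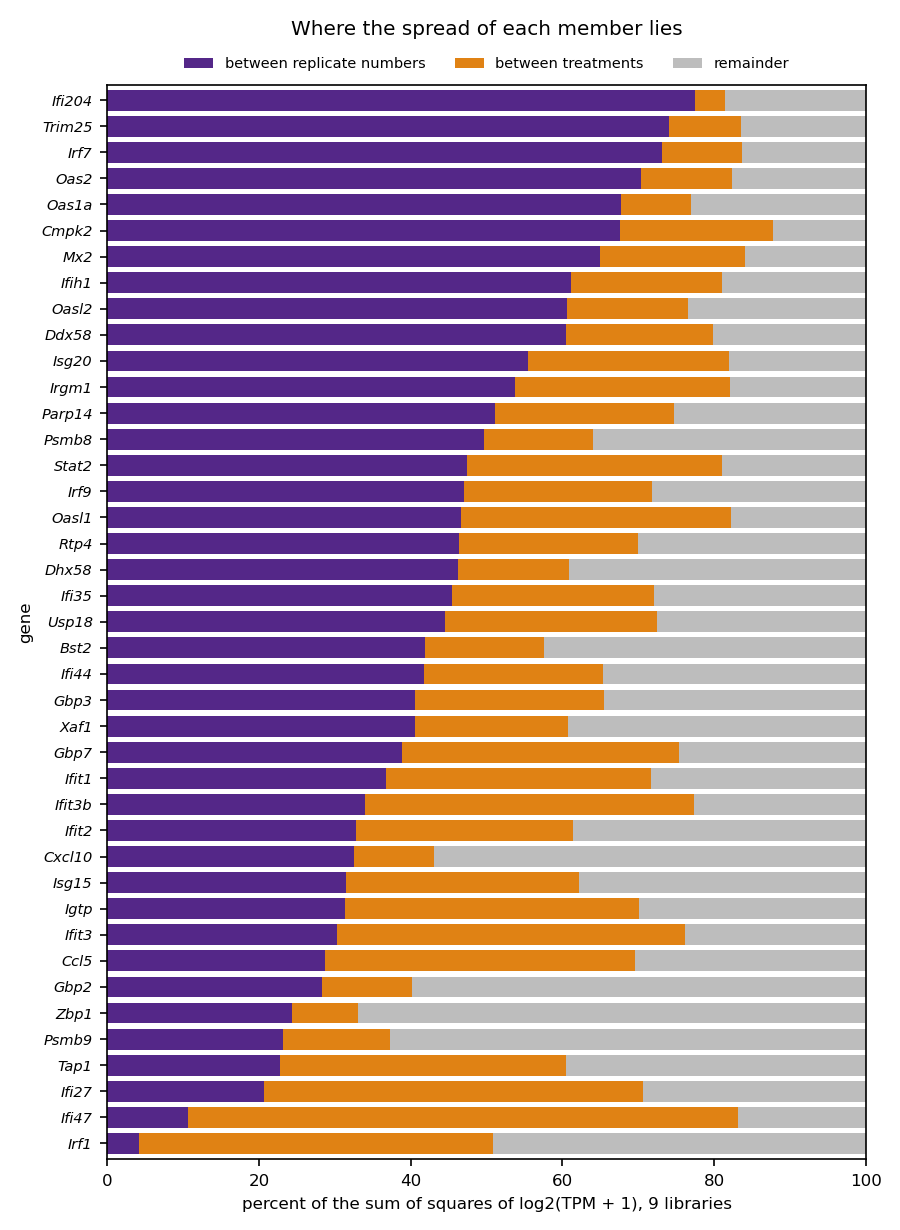
Division of each tested member's sum of squares of log2(TPM + 1) over the 9 libraries into the part between replicate numbers (purple), between treatments (orange) and the remainder (grey), in percent. The purple part reaches 77.4% in Ifi204, and Ifi47 stands out with 72.5% between treatments.

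Once the treatment means were removed, the members still deviated together. The median Pearson correlation over the 820 member pairs was 0.8 across the 9 libraries, against 0.17 between members and other tested genes, and 502 pairs were above 0.7. The libraries share treatment groups and composition, so these are descriptions. Dhx58, Ifi35 and Parp14 were closest to the mean of the other members, each at 0.99. At the other end were Ifi27 (-0.27), Cxcl10 (-0.19), Ccl5 (-0.02), Ifi47 (0.03) and Isg20 (0.25). Of the 41 members, 31 were lowest in oxLDL library 1 (75.6%, against 11.8% of all genes) and 22 were highest in oxLDL library 3 (53.7%, against 16.5%).

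Upstream of the members, transcripts of the interferons themselves were hardly seen. Of 10 interferon ligand genes, including Ifnb1, Ifna1, Ifna4 and Ifne, 9 were listed at 0 in all 9 libraries, and Ifng was at 0.06 TPM in oxLDL library 3 and at 0 in the other 8. The receptors and kinases were transcribed at even levels. Ifnar1, a chain of the type I receptor, had 39.2, 39.8 and 38.2 TPM with oxLDL, 36.9, 41.8 and 39.9 TPM with LDL, and 39.3, 43.6 and 38.05 TPM in Control. Ifnar2, its partner, had 68.9, 79.2 and 84.7 TPM with oxLDL, 71.7, 86.9 and 74.7 TPM with LDL, and 66.02, 94.05 and 66.9 TPM in Control. Both showed overlapping groups. Jak1 was the most abundant of the list, with 98.3 to 122 TPM, and Tyk2 had 8.66 to 12.0 TPM. Ifngr1 and Ifngr2, the interferon gamma receptor, had 51.4 to 59.7 TPM and 31.3 to 38.6 TPM, Il10rb 36.0 to 43.5 TPM and Jak2 12.5 to 16.6 TPM. Ifnlr1, of the interferon lambda receptor, had a mean under 1 TPM. Of the 8 tested, 0 passed in a treatment comparison or in the F test over replicate numbers.

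The other lists are read against the 11.7% of all genes that the F test over numbers called. Of 12 tested sensing genes 0 passed in a treatment comparison and 1, the RNA receptor Tlr7, in the F test over numbers. Of 13 tested genes that restrain the response, Samhd1 and Adar passed in the F test. Samhd1, which degrades deoxynucleotides, had 63.3, 93.5 and 96.3 TPM with oxLDL, 59.6, 80.3 and 83.4 TPM with LDL, and 75.2, 97.6 and 108 TPM in Control. Its LDL and Control libraries overlapped, and its log2 difference of -0.32 passed only with the replicate block (limma adjusted p = 0.0427, and 0.943 without it). Adar, which edits double-stranded RNA, had 18.5, 26.02 and 40.7 TPM with oxLDL, 21.7, 25.2 and 32.3 TPM with LDL, and 26.5, 28.5 and 36.5 TPM in Control, with library 3 the highest of each treatment. Of 13 antigen presentation genes 1 passed over numbers, Nlrc5, the activator of MHC class I, with 1.73, 3.12 and 6.64 TPM with oxLDL, 2.39, 2.5 and 4.74 TPM with LDL, and 2.88, 3.35 and 6.28 TPM in Control.

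A further 50 interferon-stimulated genes outside the member list were tested. Of these, 48 had a lower mean with oxLDL than in Control, against 50.9% of all genes, with a median log2 difference of -0.21. With LDL 39 did, against 50.5%, with a median of -0.18. In the treatment comparisons 0 passed, with or without the block. This list was also chosen with earlier results of these data known and is read in the same libraries, so it is not independent evidence. In the F test over replicate numbers 15 of the 50 passed, against 11.7% of all genes, with Ly6e, Slfn5 and Pml at the smallest adjusted p. The median log2 difference of number 3 against number 1 was 0.56, against 0.08 over all genes.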

How the data were processed

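RNA of 9 samples was sequenced from amplified cDNA of 50 ng total RNA in 100 bp pairs with an unstranded kit, per the labels' protocols. The deposited values are TPM from RSEM 1.3.1 and STAR (version not given) on mm10, per the submitters' processing notes, with the annotation not given in the sources used here. Since TPM removes sequencing depth, the read number behind each library is unknown, and no counting error is given. Between 20985 and 21433 genes were above 0 per library, and 0 sample columns were left out.

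Values were analysed as log2(TPM + 1), which understates changes of low genes, for 13495 genes averaging 1 TPM or more (38315 left out). Differences were tested with limma 3.58.1 (R 4.3.3, eBayes with trend), two-sided, over all 9 libraries with 6 residual degrees of freedom (4 with the replicate block) and Benjamini-Hochberg adjustment over all genes tested at 0.05. Replicate numbers come from the sample titles. They were taken to pair the samples because every same-numbered pair correlated above 0.1, and the labels name no shared culture or day. Different-numbered pairs reached 0.13, so this limit alone does not separate them from same-numbered pairs. Deviations from the treatment means also cancel within a treatment, which lowers different-numbered pairs when same-numbered pairs are positive. The pairing is thus an assumption of the block results. An exact permutation of 3 against 3 cannot go below p = 0.1, so none was run per gene. The scripts were tested on simulated data.

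The members and the role, pathway and marker lists were chosen with earlier results of these data known. In each role the 3 most abundant members, those called by the F test over replicate numbers and several others are given in every library, the rest by range. Mx2, Oas2 and Ifi47 were added after their values were seen. Positions and coding sequences came from GENCODE M21 (GRCm38), in which exons of 12 members overlap a gene on the other strand and 6 a gene on the same strand. Promoters came from RefSeq (GRCm38.p6), searched with Biopython 1.88.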

Additional observations from a re-analysis of the deposited data

How the results depend on the processing

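Alternatives were pseudocounts of 0.1 and 5, no filter or a mean of at least 5 TPM, median-ratio and quantile scaling, the compared libraries alone, the replicate block and leaving out libraries. In all of these 0 members were called in each of the 3 treatment comparisons. The oxLDL against LDL median changed sign without oxLDL 1, oxLDL 2, LDL 3 or all libraries numbered 1. With the replicate block, the medians were -0.43, -0.37 and -0.07 for oxLDL against Control, LDL against Control and oxLDL against LDL. They equal those without it because the design is balanced. The block can change only the standard errors and p-values, so the equal medians are no check. Over 12 fits without a library or a replicate number, these medians ran over -0.8 to -0.12, -0.51 to -0.24 and -0.42 to 0.29, and the members with a lower mean over 35 to 39, 34 to 39 and 4 to 37.

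Calls over replicate numbers were less stable. The F test called 1 member with no filter on low values and 0 to 4 with a library left out. Number 3 against number 1 called 1 member with no filter, 7 with median-ratio scaling, 7 with quantile scaling, 5 without treatment in the model, and 0 to 10 with a library left out (0 without oxLDL 1 or Control 1). The median difference of number 3 against number 1 ran over 0.34 to 0.7 and the share between numbers over 33.8 to 60.9%. Without the filter more genes were tested (27270), and the other causes were not tested.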

Other observations

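The tested genes outside the list whose deviations from the treatment means were most like the mean of the members, by Pearson correlation over the 9 libraries, were Trim12c, Irgm2, Uba7, Slc9a8, Trim30a, Phf11b, Hap1, 2410018L13Rik, Abca8a and Dnajc14, with correlations of 0.97 to 0.99. Irgm2, Uba7 and Trim30a are interferon-stimulated genes of the wider list. Exons of Irgm2 overlap those of the member Igtp on the same strand, so reads of these genes cannot be fully told apart. Uba7, the activating enzyme for ISG15, had 16.5, 21.1 and 35.8 TPM with oxLDL, 25.6, 20.7 and 29.4 TPM with LDL, and 28.8, 30.3 and 38.1 TPM in Control, with the same lowest library as Isg15. Dnajc14 ran over a narrower range, from 52.4 TPM in oxLDL library 1 to 60.7 TPM in oxLDL library 3. The mean of the members was also lowest and highest in these libraries. The likeness of Dnajc14 is measured on deviations from the treatment means, and the order of the other libraries was only partly the same.

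Beside these likenesses, 24 of the 32 tested members with a correlation of at least 0.8 to the mean of the other members had a promoter window, and 13 of the 24 held an ISRE core. Of the 9 members under 0.8, 7 had a window and 2 of them, Cxcl10 and Gbp2, held it. The limit of 0.8 was chosen after the correlations were seen, and the difference was not tested.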
